A study of Mus musculus with 6 samples.

Results

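The 10 genes Lrat, Reln, Des, Rgs5, Pdgfra, Pdgfrb, Acta2, Tagln, Cspg4 and Dcn mark hepatic stellate cells, mural cells (pericytes and vascular smooth muscle) or fibroblasts. They were taken by name from the gene tables of sorted liver endothelial cells (ECs), to ask how much RNA of mesenchymal cells the sorted ECs held and whether ECs of old mice carried more of it. All 10 were among the 24421 gene symbols counted, and all 10 were among the 14612 symbols that were tested, with a floor of 0.5 CPM (counts scaled to library size) in at least 1 sample. ECs were sorted by fluorescence as CD31+CD45- cells from livers of female wild-type C57BL/6J mice, at 50000 cells per library. The young group was 3 samples from 10-week-old mice. The aged group was 3 samples labelled 127, 131 and 136 weeks, which are named here by those weeks. Age was the only difference between the groups that the labels and methods state. According to them, no mouse carried a transgene or received a treatment. The gate requires the endothelial surface protein CD31, which stellate and mural cells lack, and the absence of the leukocyte protein CD45. By the methods, dead cells and doublets were gated out as well.

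Stellate cells lie between the sinusoidal endothelium and the hepatocytes, store vitamin A as retinyl esters, and turn into matrix-producing contractile cells after injury. Mural cells wrap larger vessels and contract, and ECs recruit them by releasing PDGF-B, which binds PDGF receptor beta on the mural cell. Mesenchymal RNA in a sort of ECs can come from other cells that passed the gate, from free RNA, or from ECs that have switched on mesenchymal genes, which is called endothelial-to-mesenchymal transition.

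Total counts ran from 23001556 to 31651817 per sample, so that 3 counts stood for 0.0947 to 0.135 CPM after TMM scaling, the scale of all CPM values given here. Reads carried no molecular identifiers, so this floor covers counting error only. Lars2 and Rn45s, which collect ribosomal RNA reads, took 1.29% of the counts of young replicate 3 and 0.960% of those of the 127-week sample, against 4.68% to 5.53% in the other 4 libraries. This split crosses the ages and is followed beside the results below as the libraries with few and with many such counts. The endothelial label held, since Cdh5, the junction protein VE-cadherin, stood between 62.0 and 119 FPKM (a level scaled to gene length and library size, which can be compared between genes) in every sample. Of 26 endothelial identity genes, however, 19 were lower in aged ECs and 12 lay below the young samples without overlap, as did 8.33% of all genes tested. Their summed level was 34930 to 38055 CPM in young and 19703 to 28568 CPM in aged ECs. Of 14 leukocyte genes, all 14 were higher in aged ECs, with a summed level of 133 to 174 CPM in young and 128 to 774 CPM in aged samples. The 136-week sample held the 774 CPM, and Ptprc, which encodes CD45, was at 25.6 CPM there and at 1.17 to 1.70 CPM in young ECs. The T cell genes Cd3e and Cd3g were at 0 to 3 counts in the young and the 131-week samples, at 13 and 23 counts in the 127-week sample, and at 74 and 70 counts in the 136-week sample. The part of these shifts in the results below was not tested except where a value is given.

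All 10 genes were detected in all 6 libraries, at levels that spanned a wide range per length. Dcn, which encodes the collagen-binding proteoglycan decorin, had the highest mean at 42.9 FPKM and ran from 9.82 to 79.1 FPKM. Reln, encoding the secreted glycoprotein reelin, followed at 19.0 FPKM. The smooth muscle genes Tagln and Acta2 came next, with mean levels of 13.3 and 9.79 FPKM. Rgs5 (4.54 FPKM), Des (2.48 FPKM), Pdgfrb (2.27 FPKM) and Lrat (1.38 FPKM) formed the middle of the order. Cspg4 and Pdgfra were lowest, with mean levels of 0.653 and 0.380 FPKM. The ranges over samples of each gene and the next one in this order overlapped throughout. Within a sample, though, Dcn exceeded Reln, Tagln exceeded Acta2, Acta2 exceeded Rgs5 and Rgs5 exceeded Des in 6 of 6 samples, whereas Reln exceeded Tagln in 3. Set against Cdh5 in the same sample, the FPKM of Acta2 was 7.66% to 8.38% in young and 6.83% to 13.8% in aged ECs. That of Pdgfrb was 1.23% to 2.60% in young and 2.30% to 2.88% in aged ECs. Dcn reached 10.8% to 67.8% of Cdh5 in young and 26.7% to 64.3% in aged ECs, so its level approached that of the endothelial gene in some libraries of both ages.

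None of the 10 genes passed the test between aged and young ECs (edgeR quasi-likelihood test, with a threshold of 0.05 on the Benjamini-Hochberg adjusted p and of 1 on the log2 scale), which called 0 of all 14612 genes, or 0%. Unadjusted p was below 0.05 for 1216 genes on the higher and 631 on the lower side, and DESeq2 called 472 genes. Among the 10, 8 had a higher fitted level in aged ECs and 2 a lower one, with a median log2 fold change of 0.23 beside 0.01 over all genes. The count of 8 higher rested on single mice: it was 5 without young replicate 3 and 2 without the 136-week sample. The median was -0.12 without the 136-week sample, and limma-voom with sample quality weights also gave 2 higher. Lrat alone had an unadjusted p below 0.05. It was on the lower side, where 4.32% of all genes stood, and 0 of the 10 were on the higher side, where 8.32% stood. Lrat was also the gene whose aged samples all lay below the young ones, as for 8.33% of all genes, while for 0 of the 10 did the aged samples all lie above the young ones, as for 9.62% of all genes. The DESeq2 Wald test on the same counts called Lrat alone of the 10, among 77 genes, or 0.527%, that it called lower in aged ECs. The summed level of leukocyte genes was highest in the same 136-week sample in which 8 of the 10 genes had their highest CPM. That sample was highest for 25.7% of all genes.

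**Figure D1:**
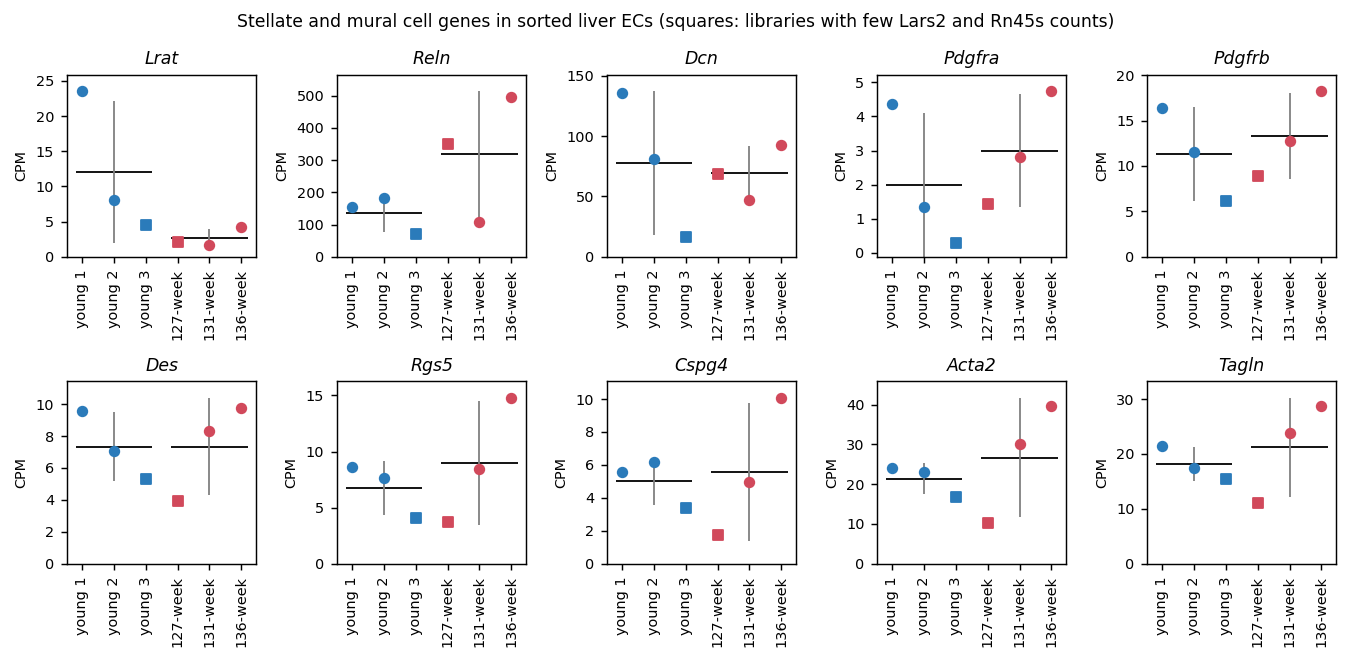
CPM (vertical axis) of the 10 genes in young replicates 1 to 3 (blue) and the 127-, 131- and 136-week samples (red), with the mean as a horizontal and ± SD as a vertical line, and squares for the 2 libraries with few Lars2 and Rn45s counts. Lrat is the gene whose ages do not overlap, and for Des, Rgs5, Pdgfrb, Cspg4, Acta2 and Tagln the squares are the lowest 2 points.

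**Figure D2:**
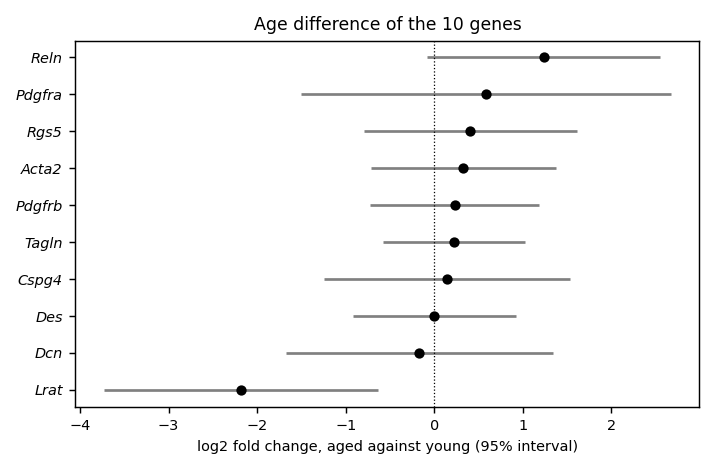
Fitted log2 fold change, aged against young (horizontal axis), of each of the 10 genes with its 95% interval from edgeR's quasi-likelihood fit on 3 samples per age. The interval of Lrat, -3.73 to -0.64, lies below 0 and those of the other genes include 0.

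Lrat encodes lecithin retinol acyltransferase, which esterifies vitamin A and is the classical marker of quiescent stellate cells in the liver. It was at 23.6, 8.12 and 4.51 CPM in young replicates 1, 2 and 3, and at 2.1, 1.67 and 4.18 CPM in the 127-, 131- and 136-week samples. Every aged sample was below every young one, but the 136-week sample and young replicate 3 almost met, and young replicate 1 was far above the other 5. The mean was 12.1 ± 10.1 CPM in young and 2.65 ± 1.34 CPM in aged ECs (SD, n = 3 each). The log2 fold change was -2.19 with a standard error of 0.66, an unadjusted p of 0.012 and an adjusted p of 0.286 in edgeR. Without young replicate 1 it was -1.25, and with DESeq2 the adjusted p was 0.0198, the lowest of 17 alternatives, over which the adjusted p reached 0.625. Within the libraries with many Lars2 and Rn45s counts, the aged samples (n = 2) were lower than the young ones (n = 2) by a log2(CPM + 1) difference of -2.01, and in the pair with few such counts the difference was -0.83. In these bulk samples, fewer cells of a type and less RNA per cell cannot be told apart. Hepatocyte genes were lower alongside, in 12 of 13 tested, with a summed level of 292 to 385 CPM in young and 207 to 328 CPM in aged ECs, and Alb was detected in every sample. Ass1 was at no more than 2 counts, but the FPKM table lists it at 0 to 4.11 FPKM, so the tables differ for this gene and its level is uncertain. The part of hepatocyte RNA in the result for Lrat was not tested. Lrat lies on the minus strand of chromosome 3 (mm9, 82696501 to 82707895) and overlaps a processed transcript, 4930564K09Rik, on the other strand. Whether counting used the strand is not stated, so their reads cannot be told apart.

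The level of Lrat also differed when it was set against Pdgfrb, a receptor on stellate and mural cells alike. The ratio of Lrat to Pdgfrb CPM was 1.44, 0.706 and 0.741 in young and 0.236, 0.131 and 0.229 in aged ECs, without overlap. The two-sided exact permutation p of the log2 ratios was 0.1, the smallest that 3 samples against 3 can give. None of the other 8 genes had a ratio to Pdgfrb that separated the ages. For Lrat against Colec11, a collectin of stellate cells chosen after its values were seen, the ratio was 0.720 to 1.34 in young and 0.321 to 0.636 in aged ECs, again without overlap. Against Vipr1, another gene of the stellate cell list, the ratio was 0.242 to 0.785 in young and 0.145 to 0.880 in aged ECs, and against Angptl6 it was 2.28 to 5.28 and 1.95 to 5.72. The ages thus separated for the ratios of Lrat to Pdgfrb and to Colec11, and overlapped for its ratios to Vipr1 and to Angptl6. Vipr1 and Angptl6 were themselves lower in aged ECs, with log2 fold changes of -1.51 and -2.08. Those of Pdgfrb and Colec11 were 0.23 and -1.01. The outcome thus depended on the gene set against Lrat, and these ratios add no evidence of their own.

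RefSeq start sites (table build GRCm38.p6) were found for 7 of the 10 genes, without Pdgfrb, Tagln and Dcn. The 250 bases before each start were searched for the CArG box, which serum response factor binds in smooth muscle genes (CC, 6 bases of A or T, GG, a pattern that reads alike on both strands), and for CATTCC on either strand (GGAATG), the core of the MCAT element bound by TEAD factors. The strict CArG box was in 0 of the 7 windows and in 1.47% of 32851 promoters of the same length. With 1 of the inner bases allowed to be G or C, a form that was searched for after the strict result was seen, it was in 2 of the 7 and in 7.24% of all. Acta2 had 2 such matches, which begin 84 and 34 bases before its start, and Lrat had 1, at 223 bases. CATTCC or GGAATG was in 2 of the 7, those of Lrat and Acta2, and in 12.6% of all. Both windows are shown because they belong to the stellate gene that separated the ages and to the contractile gene that did not. The capitals mark the match to CATTCC or GGAATG, which begins 208 bases before the start in Lrat and 146 bases before it in Acta2, and say nothing of binding. By exact match to mm9 the windows are chr3:82707897-82708146 and chr19:34329864-34330113, both read 5′ to 3′ on the minus strand.
Lrat: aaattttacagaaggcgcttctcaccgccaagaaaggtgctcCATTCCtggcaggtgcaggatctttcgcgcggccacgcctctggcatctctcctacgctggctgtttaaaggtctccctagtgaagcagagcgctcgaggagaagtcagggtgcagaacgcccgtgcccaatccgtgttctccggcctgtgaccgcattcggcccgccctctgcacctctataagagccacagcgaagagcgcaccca
Acta2: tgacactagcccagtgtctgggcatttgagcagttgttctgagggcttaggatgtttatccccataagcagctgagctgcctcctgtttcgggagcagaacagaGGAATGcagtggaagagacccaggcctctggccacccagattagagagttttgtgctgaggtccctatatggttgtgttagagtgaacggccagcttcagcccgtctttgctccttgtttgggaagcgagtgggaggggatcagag

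Other genes of stellate cells pointed in both directions. Of the 25 genes of the stellate cell list, 24 were tested, 8 with a higher and 16 with a lower level in aged ECs. The median was -0.22 on the log2 scale (-0.23 without Lrat, Reln and Des, beside 0.01 over all genes), and edgeR called 0. Within the libraries with many Lars2 and Rn45s counts the median log2(CPM + 1) difference was -0.40, and within the pair with few it was 0.09. The added 1 shrinks differences between levels of a few CPM, so these medians and the fitted one are not on the same scale. Of the 24, 4 had an unadjusted p below 0.05 on the lower side (4.32% of all genes), namely Lrat, Angptl6, Gdf2 and Vipr1. On the higher side there were 2 (8.32% of all genes), Synm among them. Angptl6, Gdf2 and Synm are named because these counts are small. Gfap, an intermediate filament of stellate cells, was too low to test, at 0 to 6 counts per sample.

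Gdf2 encodes BMP9, a circulating ligand of the endothelial receptor ALK1 that the liver makes. It was at 9.27, 6.72 and 0.726 CPM in young and at 0.550, 0.156 and 0.934 CPM in aged ECs. Young replicates 1 and 2 were far above the rest, young replicate 3 lay among the aged samples, and the log2 fold change was -3.34 with a standard error of 0.99 (edgeR adjusted p = 0.277). Vipr1, a receptor for vasoactive intestinal peptide, was at 30.0, 20.5 and 18.7 CPM in young and at 7.94, 11.5 and 4.75 CPM in aged ECs. Its ages did not overlap, and the log2 fold change was -1.51 with a standard error of 0.35 (edgeR adjusted p = 0.235). Angptl6, a secreted angiopoietin-like protein, was at 4.47, 3.57 and 1.51 CPM in young and at 0.653, 0.856 and 0.731 CPM in aged ECs, likewise without overlap. Its log2 fold change was -2.08 (standard error 0.51, edgeR adjusted p = 0.237). In the FPKM table, however, it was at 6.40, 6.09 and 3.70 FPKM in young and at 3.99, 4.43 and 3.59 FPKM in aged ECs, where the ages overlap, so its difference depends on the table. Synm, an intermediate filament protein, was at 4.88 to 5.30 CPM in young ECs and at 13.8, 3.85 and 26.5 CPM in the 127-, 131- and 136-week samples. Prelp and Ecm1, the list's genes of highest mean CPM, had log2 fold changes of -0.11 and -0.23 with overlapping ages. Over the 6 samples they stood at 160 to 221 and 154 to 281 FPKM, against 0.312 to 4.41 FPKM for Lrat. The cell types that this RNA came from were not tested.

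**Figure D3:**
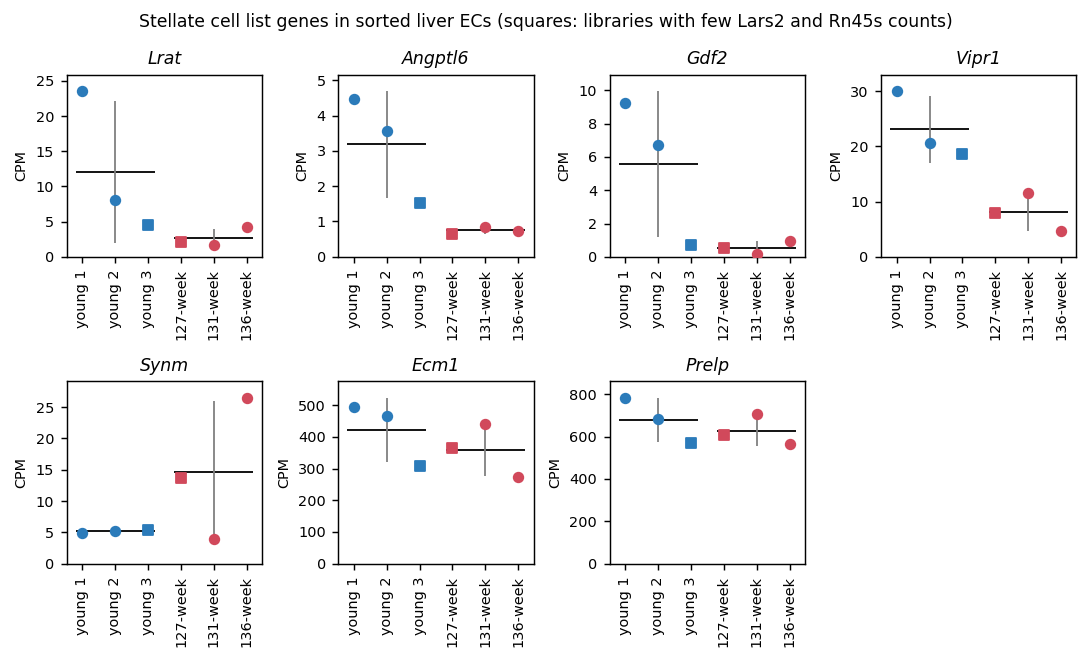
CPM (vertical axis) of 7 genes of the stellate cell list in young replicates 1 to 3 (blue) and the 127-, 131- and 136-week samples (red), with mean and ± SD lines and squares for the 2 libraries with few Lars2 and Rn45s counts. Aged points lie below all young points for Lrat, Angptl6 and Vipr1, and overlap them for Gdf2, Synm, Ecm1 and Prelp.

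Among the other genes of vitamin A storage and use, 10 of 11 were tested, of which 7 were higher and 3 lower in aged ECs (median 0.51, 0 called by edgeR). Plin2, which coats lipid droplets, had a log2 fold change of -0.33 (unadjusted p = 0.049, edgeR adjusted p = 0.393). Its levels were 170 to 187 CPM in young and 126 to 152 CPM in aged ECs, without overlap. With Lrat, Plin2 was the gene of this group whose aged samples all lay below the young ones, as for 8.33% of all genes.

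Reln differed in the opposite direction from Lrat but not in every aged mouse. Reelin is secreted by stellate cells in the liver and also by lymphatic ECs. The gene was at 155, 181 and 69.9 CPM in young replicates 1, 2 and 3, and at 351, 109 and 496 CPM in the 127-, 131- and 136-week samples. The 127- and 136-week samples were above all young ones, and the 131-week sample lay among them. The mean was 135 ± 58.2 CPM in young and 319 ± 195 CPM in aged ECs (SD, n = 3 each), and the log2 fold change was 1.24 with a standard error of 0.56 and an adjusted p of 0.424 in edgeR. It was 0.77 without the 136-week sample and 1.65 without the 131-week sample, and between 0.69 and 1.65 over the 17 alternatives, of which 0 passed the threshold. Among the 4 libraries rich in Lars2 and Rn45s the log2(CPM + 1) difference was 0.47, and within the pair with few it was 2.31. The ratio of Reln to Lrat was 6.58, 22.3 and 15.5 in young and 167, 65.1 and 118 in aged ECs, a ratio of a gene lower and a gene higher in aged ECs that adds no evidence to either. Reln lies on the minus strand of chromosome 5 (mm9, 21390272 to 21850523), and its long span holds 6 other annotated genes, all pseudogenes or processed transcripts.

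The pattern of Reln over the samples was closer to that of Mmrn1 and Prox1, genes of lymphatic ECs, than to that of Lrat. Mmrn1, encoding the secreted protein multimerin-1, was at 989, 1263 and 477 CPM in young and at 2052, 903 and 3916 CPM in aged ECs. Its order of samples was that of Reln, and the ratio of Reln to Mmrn1 stayed between 0.121 and 0.171 in all 6 samples, a 1.42-fold range. Prox1, the transcription factor that specifies lymphatic ECs, was at 27.1, 34.1 and 16.1 CPM in young and at 68.2, 26.3 and 160 CPM in aged ECs. The 127- and 136-week samples were again highest, and the ratio of Reln to Prox1 spanned 1.84-fold, against 25.4-fold for Reln to Lrat. Both had an unadjusted p below 0.05 (Prox1: log2 fold change 1.72; Mmrn1: 1.33), with edgeR adjusted p of 0.336 and 0.388. Not all genes of the list went along. Flt4, the receptor for VEGF-C, was at 1438, 1809 and 1544 CPM in young and at 763, 1108 and 1462 CPM in aged ECs, and Pdpn (podoplanin) was highest in the 136-week sample alone, at 28.1 CPM against 4.17 to 17.6 CPM elsewhere. The chemokine gene Ccl21a was at 0 counts in every sample. Lyve1, which sinusoidal and lymphatic ECs share, was at 391, 537 and 671 CPM in young and at 661, 223 and 1506 CPM in aged ECs. Of the list, 5 of 6 genes were tested and 4 were higher in aged ECs, with a median of 1.24 (0.79 without Reln). Lrat differs in the opposite direction from Reln, so a wide range of their ratio was bound to arise. Of the stellate cell list, Lamb1 and Steap4, chosen after their values were seen, had the pattern of Reln too. Lamb1 was at 41.2, 40.9 and 14.45 CPM in young and at 52.8, 19.3 and 93.0 CPM in aged ECs. Steap4 was at 16.8, 14.4 and 5.96 CPM and at 20.7, 10.2 and 35.05 CPM. The cell type that Reln RNA came from was not tested. The 127- and 136-week samples were also those with the most leukocyte RNA, at 278 and 774 CPM summed, and with the least summed endothelial identity RNA, at 21474 and 19703 CPM. The part of these shifts in the level of Reln was not tested.

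**Figure D4:**
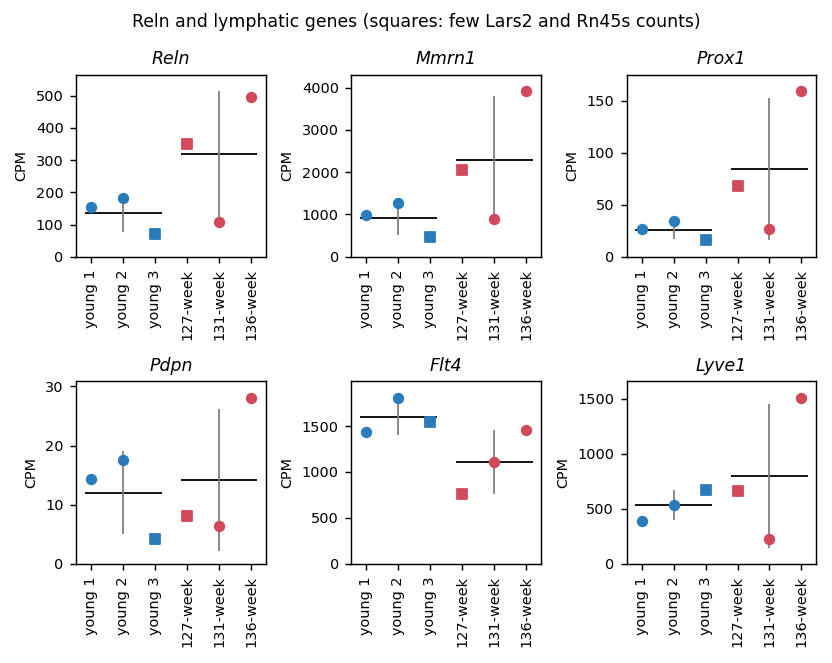
CPM (vertical axis) of Reln, of the 4 other tested genes of the lymphatic list and of Lyve1 in young replicates 1 to 3 (blue) and the 127-, 131- and 136-week samples (red), with mean and ± SD lines and squares for the 2 libraries with few Lars2 and Rn45s counts. Reln, Mmrn1 and Prox1 have their highest 2 values in the 136- and 127-week samples, and Flt4 has not.

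The receptors through which mural cells and fibroblasts answer PDGF did not separate the ages. Pdgfrb, the receptor for PDGF-B, was at 16.4, 11.5 and 6.09 CPM in young and at 8.87, 12.8 and 18.2 CPM in aged ECs. Young replicate 3 was lowest, the 127-week sample next, and the 136-week sample highest, so that the ages overlapped throughout. The log2 fold change was 0.23 with a standard error of 0.41 and a 95% interval from -0.72 to 1.18 (edgeR adjusted p = 0.879). Pdgfra, the receptor that marks fibroblasts and stellate cells, was at 4.35, 1.35 and 0.284 CPM in young and at 1.44, 2.80 and 4.75 CPM in aged ECs. These values rested on 9 to 117 counts, with young replicate 1 and the 136-week sample both at 117, and the log2 fold change was 0.59 with a standard error of 0.89 (edgeR adjusted p = 0.854). Without young replicate 1 it was 1.89. Pdgfrb lies on the plus strand of chromosome 18 (mm9, 61204804 to 61244715) and Pdgfra on that of chromosome 5 (75548316 to 75594229).

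The ligands and the receptors of the PDGF and reelin pathways were measured beside them. All 11 genes of that list were tested and all 11 had a higher fitted level in aged ECs (median 0.64, and 0.72 without Pdgfra, Pdgfrb and Reln), of which 0 were called by edgeR. Unadjusted p was below 0.05 for 4, beside 8.32% of all genes on the higher side. The ages did not overlap for 4, beside 9.62% of all genes on that side. Pdgfb, the ligand that ECs make to hold mural cells, was at 23.9, 20.6 and 27.9 CPM in young and at 32.5, 29.7 and 51.1 CPM in aged ECs. Every aged sample was above every young one, with a log2 fold change of 0.64 and a standard error of 0.24 (edgeR adjusted p = 0.358). Pdgfa was likewise at 3.12 to 4.21 CPM in young and at 5.76 to 7.59 CPM in aged ECs (log2 fold change 0.80, edgeR adjusted p = 0.324). Pdgfd, the ligand of highest mean CPM, differed by 0.13. The reelin receptor gene Lrp8 was at 0.744, 0.406 and 0.189 CPM in young and at 1.82, 2.29 and 2.36 CPM in aged ECs, without overlap (log2 fold change 2.27, standard error 0.60, edgeR adjusted p = 0.250). The other receptor gene, Vldlr, had its highest values in the 127- and 136-week samples, 6.22 and 16.9 CPM, with 1.39 to 3.43 CPM elsewhere. Pdgfa, Pdgfb and Vldlr are named here although chosen after their values were seen. The ratio of Pdgfb to Pdgfrb overlapped between ages, at 1.46 to 4.59 in young and 2.33 to 3.66 in aged ECs.

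The ages overlapped for each of the mural cell and contractile genes among the 10. Acta2 encodes smooth muscle alpha-actin, the hallmark of smooth muscle and of activated stellate cells. It was at 24.0, 23.1 and 16.8 CPM in young and at 10.3, 30.1 and 39.7 CPM in aged ECs. The aged samples enclosed the young ones on both sides, with the 127-week sample lowest and the 131- and 136-week samples highest, and the log2 fold change was 0.32 with a standard error of 0.45 (edgeR adjusted p = 0.831). Tagln, encoding the actin-binding protein transgelin, was at 21.6, 17.4 and 15.5 CPM in young and at 11.1, 23.8 and 28.7 CPM in aged ECs. It enclosed the young samples in the same way (log2 fold change 0.22, standard error 0.34, edgeR adjusted p = 0.856), and the ratio of Acta2 to Tagln stayed between 0.923 and 1.39, a 1.50-fold range. No stretch of 75 bases of Acta2 transcripts, of 1707 examined, was shared with another protein-coding gene, its actin paralogs included. Acta2 is on the minus strand of chromosome 19 (mm9, 34315580 to 34329826). Tagln, on that of chromosome 9 (45737711 to 45744141), overlaps Pcsk7 on the plus strand, so that part of its reads could belong to Pcsk7 where the strand was not used.

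Rgs5, a regulator of G protein signalling that marks pericytes, was at 8.60, 7.67 and 4.04 CPM in young and at 3.75, 8.40 and 14.8 CPM in aged ECs. Cspg4, the pericyte proteoglycan NG2, was at 5.55, 6.18 and 3.41 CPM in young and at 1.72, 4.94 and 10.1 CPM in aged ECs. For both, the 127-week sample was lowest, young replicate 3 next, and the 136-week sample highest, and the log2 fold changes were 0.41 ± 0.51 and 0.14 ± 0.59 (± standard error) with edgeR adjusted p of 0.808 and 0.954. Des, encoding the intermediate filament desmin of muscle and stellate cells, was at 9.60, 7.09 and 5.33 CPM in young and at 3.92, 8.32 and 9.79 CPM in aged ECs. Its means were 7.34 ± 2.15 and 7.34 ± 3.05 CPM (SD, n = 3 each), the log2 fold change was 0.00 with a 95% interval from -0.92 to 0.92, and its ages overlapped. That interval leaves room for a difference of nearly 1 on the log2 scale in either direction, so no change was detectable at this spread. By mm9 position, Rgs5 (171585632 to 171625944) and Des (75356904 to 75365154) lie on the plus strand of chromosome 1, and Cspg4 (56712911 to 56747677) on that of chromosome 9. Des overlaps the processed transcript Gm15179 on the other strand.

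For these 6 genes, Des, Rgs5, Pdgfrb, Acta2, Tagln and Cspg4, the libraries with few Lars2 and Rn45s counts, 1 young and 1 aged, were the lowest 2 of the 6, as for 14.1% of all genes tested. For 0 of the 10 genes were they the highest 2, as for 16.6% of all genes. Within the 4 libraries with many such counts, the log2(CPM + 1) difference between ages was 0.12 for Des, 0.42 for Rgs5, 0.14 for Pdgfrb, 0.54 for Acta2, 0.41 for Tagln and 0.24 for Cspg4. Within the pair with few it was -0.36 for Des, -0.09 for Rgs5, 0.48 for Pdgfrb, -0.66 for Acta2, -0.44 for Tagln and -0.70 for Cspg4. The sign thus turned between the libraries for 5 of the 6. Without the 136-week sample all 6 had a log2 fold change below 0, from -0.60 for Cspg4 to -0.06 for Tagln. Cdh5 was lowest in the same 2 libraries, at 351 CPM in young replicate 3 and 241 CPM in the 127-week sample, against 404 to 469 CPM in the others.

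The wider list of 26 mural cell and smooth muscle genes had 24 with a higher and 2 with a lower level in aged ECs. Their median was 0.35 on the log2 scale (0.40 without the 6 genes above) beside 0.01 over all genes. By edgeR 0 were called. On the higher side 0 had an unadjusted p below 0.05 (8.32% of all genes), and on the lower side 1 had (4.32% of all genes). That gene was Itga8, an integrin subunit of smooth muscle and stellate cells, at 192, 255 and 243 CPM in young and at 173, 105 and 156 CPM in aged ECs. Its aged samples all lay below the young ones (log2 fold change -0.67, standard error 0.22, edgeR adjusted p = 0.317). Lmod1, an actin nucleator of smooth muscle, was the gene with the smallest p among those higher, at 0.149 to 0.271 CPM in young and 0.413 to 0.895 CPM in aged ECs. These levels are close to the floor of 3 counts. Smtn (smoothelin), of high mean CPM, differed by 0.28 with overlapping ages. In 15 of the 26 genes the libraries with few Lars2 and Rn45s counts were the lowest 2, as for 14.1% of all genes. The summed level of the list was 656 to 770 CPM in young and 583 to 1043 CPM in aged ECs, highest in the 136-week sample. Smtn and Itga8, its genes of highest mean CPM, stood at 67.5 to 120 and 18.2 to 44.8 FPKM, against 1.12 to 3.36 FPKM for Pdgfrb. The cell types that their RNA came from were not tested.

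Dcn varied more between mice of one age than between the ages. It was at 136, 81.0 and 16.6 CPM in young and at 68.2, 46.9 and 92.4 CPM in aged ECs. The 3 aged samples lay inside the range of the young ones, in which young replicate 1 was 8.18-fold above young replicate 3. The log2 fold change was -0.17 with a standard error of 0.64 (edgeR adjusted p = 0.951), and without young replicate 1 it was 0.51. Within the libraries with many Lars2 and Rn45s counts the difference was -0.66, and within the pair with few it was 1.98. The ratio of Dcn to Pdgfrb ran from 2.73 to 8.27 over the 6 samples, so these mesenchymal genes did not move in a fixed proportion. Dcn is on the plus strand of chromosome 10 (mm9, 96942245 to 96980777).

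The 29 fibroblast and portal fibroblast genes, of which Dcn and Pdgfra are a part, were divided between 15 with a higher and 14 with a lower level in aged ECs, with a median of 0.09 and 0 called by edgeR. Unadjusted p was below 0.05 for 3 on the higher side and 0 on the lower side, beside 8.32% and 4.32% of all genes. Entpd2, an ectonucleotidase of portal fibroblasts, was at 3.98, 2.08 and 2.27 CPM in young and at 7.26, 4.55 and 6.30 CPM in aged ECs, without overlap (log2 fold change 1.12, standard error 0.37, edgeR adjusted p = 0.316). Fbln2, a matrix glycoprotein, was at 417 to 617 CPM in young ECs and at 969, 626 and 2086 CPM in the 127-, 131- and 136-week samples (log2 fold change 1.19, edgeR adjusted p = 0.342). The other gene was Postn (periostin), at 5.71 to 10.9 CPM in young ECs and at 27.2, 8.95 and 58.9 CPM in aged ECs. Fbln2 and Postn had their highest 2 values in the 127- and 136-week samples, as Reln had. The fibrillar collagen gene Col3a1 pointed the other way, at 85.0, 72.6 and 20.4 CPM in young and at 12.0, 13.6 and 44.8 CPM in aged ECs, with a log2 fold change of -1.34 and a standard error of 0.66 (edgeR adjusted p = 0.462). Bgn (biglycan), of high mean CPM, differed by -0.01.

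A shift of ECs to mesenchymal genes would involve the transcription factors that drive it and the products that follow. Of 20 regulators of the endothelial-to-mesenchymal transition, 19 were tested, 14 with a higher and 5 with a lower level in aged ECs, with a median of 0.08 and 0 called by edgeR. The one with an unadjusted p below 0.05 was Twist1, a transcription factor of mesenchymal cells, and it was lower. It was at 14.9, 14.8 and 8.11 CPM in young and at 2.55, 5.87 and 3.09 CPM in aged ECs, without overlap, with a log2 fold change of -1.72 and a standard error of 0.40 (edgeR adjusted p = 0.235). Smad3, which carries the TGF-beta signal to the nucleus, was at 37.2, 38.6 and 21.7 CPM in young and at 48.6, 44.3 and 43.5 CPM in aged ECs, without overlap on the higher side (log2 fold change 0.48, edgeR adjusted p = 0.442). The TGF-beta receptor genes Tgfbr2 and Tgfbr3 differed by 0.04 and -0.18, with overlapping ages.

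Of 16 mesenchymal products of that transition, 15 were tested, with 11 higher and 4 lower, a median of 0.39 and 0 called by edgeR. Unadjusted p was below 0.05 for 4 on the higher side (8.32% of all genes), among them Spp1, Cyr61 and Fn1. On the lower side (4.32% of all genes) it was so for 1, Sparc. Spp1, the secreted protein osteopontin, was at 80.7, 77.4 and 96.2 CPM in young and at 170, 162 and 206 CPM in aged ECs, without overlap, with a log2 fold change of 1.08 and a standard error of 0.16 (edgeR adjusted p = 0.177). Sparc, a matrix protein of mesenchymal cells that ECs also make, was at 1992, 1910 and 1445 CPM in young and at 905, 1259 and 1323 CPM in aged ECs, without overlap (log2 fold change -0.62, edgeR adjusted p = 0.345). Fn1 (fibronectin) was highest in the 136- and 127-week samples, at 213 and 84.0 CPM against 17.0 to 48.2 CPM elsewhere. Ctgf, of high mean CPM, differed by -0.39 with overlapping ages. Spp1 and Cyr61 were higher in every aged sample than in every young one, while Acta2 and Tagln, which are on the same list, were not. Fap was too low to test, at 1 to 11 counts.

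Summed over the 10 genes, the level was 404, 345 and 143 CPM in young and 463, 249 and 718 CPM in aged ECs. The log2 ratio of the mean levels was 0.68, and without Reln it was -0.03. The 136-week sample was highest and young replicate 3 lowest, and the ages overlapped. On the FPKM scale the ratio was 0.22. Reln therefore carried the difference in the CPM sum.

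**Figure D5:**
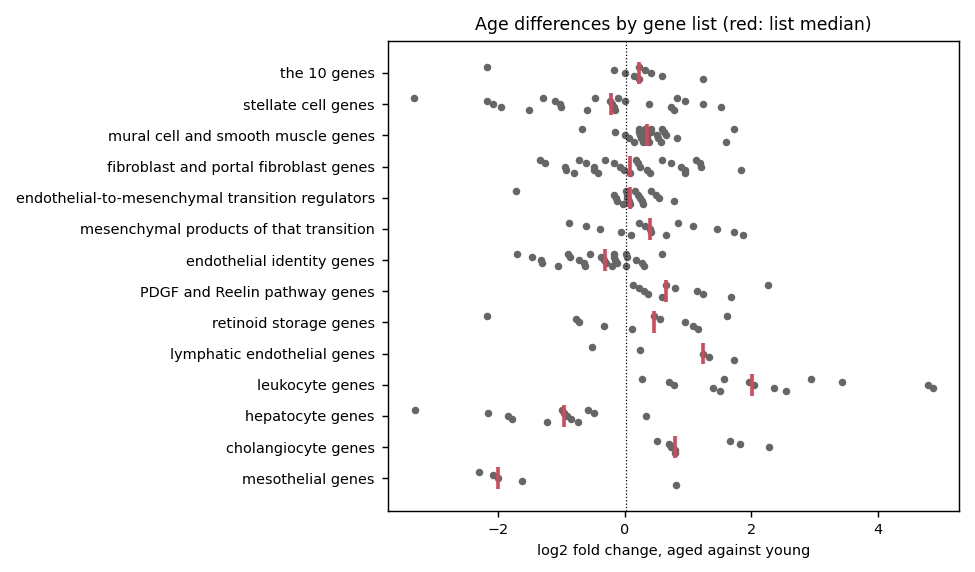
Fitted log2 fold change, aged against young (horizontal axis), of every tested gene (grey points) in the 10 genes and 13 lists, with list medians in red and the median of all genes tested, 0.01, as a dotted line; points are spread vertically for legibility. The medians are -0.22 for stellate cell genes, 0.35 for mural cell genes, 0.09 for fibroblast genes, -0.32 for endothelial identity genes and 2.00 for leukocyte genes.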

How the data were processed

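RNA-seq libraries of sorted ECs were prepared with TruSeq v2 and read as 75-base single-end reads. By the methods, each age had 3 independent samples. The authors called bases with CASAVA 1.8.2, mapped reads to mm9 with TopHat2 2.1.0 and deposited whole-number read counts per gene symbol without normalization; the counting program, annotation and strand setting are not given in the sources used here. The deposited FPKM values, for 24346 symbols, came from Cuffnorm 2.2.1.

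Symbols reaching 0.5 CPM in 1 or more samples were kept, normalized by TMM and compared with edgeR 4.0.16 (quasi-likelihood test, R 4.3.3, Benjamini-Hochberg adjustment over all genes tested). CPM were scaled by TMM. Replicates of 1 age differed by more than sampling noise (smallest chi-square per degree of freedom 20.5). DESeq2 1.42.0 and limma 3.58.1 served as alternatives. Ratios were tested by exact permutation (two-sided).

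The 10 genes, the lists and the tests were chosen with earlier results of these data known. Named genes are the 10, and of each list the 2 of highest mean CPM and the one of smallest p in each direction. Some genes of the lists are counted but not reported here by name. Other cell type lists were cholangiocyte genes (8 tested, all higher in aged ECs, median 0.79) and mesothelial genes (5 tested, 1 higher, median -2.00). Positions are those of GENCODE on mm9. The fit restricted to the 4 libraries with many Lars2 and Rn45s counts was chosen after seeing the data.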

Additional observations from a re-analysis of the deposited data

How the results depend on the processing

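Over 17 alternatives the log2 fold change of Lrat stayed below 0, from -2.67 to -0.99, and those of Reln and Pdgfra above 0, from 0.69 to 1.65 and from 0.07 to 1.89. With DESeq2, Lrat was at -2.19 and called, which made 1 of the 10 genes called, and 472 genes were called in all. The number of genes called was 4 with no filter on low counts, 2 with a term for the library cluster, 15 with limma-voom and quality weights, 1 with limma on log2(FPKM + 0.1), and 0 to 1 when 1 mouse was left out (1 without the 131-week sample). The cause was not tested. Signs turned for 7 of the 10 genes, Des, Rgs5, Pdgfrb, Acta2, Tagln, Cspg4 and Dcn. Des was at -0.0046 with DESeq2 size factors in edgeR, -0.010 with no filter, -0.066 with the cluster term, -0.0047 with DESeq2, -0.30 with voom, and -0.060 and -0.031 on FPKM with pseudocounts of 0.1 and 1. Cspg4 was at -0.070 with the cluster term, -0.52 with voom and -0.089 on log2(FPKM + 0.1). Dcn was at 0.19 with the cluster term, and at 0.22 and 0.20 on FPKM with pseudocounts of 0.1 and 1. With voom, Rgs5 was at -0.12, Pdgfrb at -0.076, Acta2 at -0.11 and Tagln at -0.034. Leaving out 1 mouse gave -0.26 to 0.31 for Des, -0.15 to 0.78 for Rgs5, -0.070 to 0.60 for Pdgfrb, -0.078 to 0.72 for Acta2, -0.056 to 0.54 for Tagln, -0.60 to 0.58 for Cspg4 and -0.65 to 0.51 for Dcn. Within the 4 libraries with many Lars2 and Rn45s counts, Lrat was at -2.44 and Reln at 0.84, with 0 genes called. No paired analysis was possible because the ages share no replicate numbers in the labels. With 3 samples per age, the wide intervals limit what could be detected.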
